A study of Drosophila melanogaster with 24 samples.

Results

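The odorant receptors (Or), gustatory receptors (Gr) and ionotropic receptors (Ir) of Drosophila melanogaster were taken as every probe set whose single gene symbol was Or, Gr or Ir followed by a number and a letter, or was Orco. This gave 186 probe sets for 166 genes, among the 11981 genes with a single symbol on the array. There were 63 probe sets for 57 odorant receptor genes, 63 for 56 gustatory receptor genes and 60 for 53 ionotropic receptor genes. A further 5 probe sets carried a receptor symbol together with a second gene symbol and were not named.

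The RNA came from populations founded by pooling 27 isogenic lines. S_O2_A populations had been bred for many generations under rising oxygen, and generation-matched control populations had been kept in room air. The 24 arrays fell into 4 groups of 6 arrays, namely S_O2_A adults, control adults, S_O2_A larvae and control larvae. Each group held 3 populations with 2 arrays each, adult samples were pools of 25 male and 25 female flies, and larvae were of the third instar. RNA was from the whole organism in every group. Adults of the S_O2_A populations were living in a high-oxygen chamber and control adults in a room-air chamber, so selection and the oxygen around the flies cannot be told apart. Neither the labels nor the methods state the adults' age or the oxygen in which larvae grew.

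Insect odorant receptors work as ion channels built from a tuning subunit and the shared co-receptor Orco, and each olfactory neuron of the antenna or the maxillary palp usually carries a single tuning receptor. Gustatory receptors are related proteins that detect sugars, bitter compounds and carbon dioxide, mostly in neurons of the mouthparts, legs and antenna. Ionotropic receptors descend from ionotropic glutamate receptors and detect acids, amines, salt, humidity and temperature, and most of them need the co-receptors Ir8a, Ir25a or Ir76b. All 3 families are expressed in small numbers of neurons, so their transcripts are a minor share of RNA from a whole fly. In such RNA, fewer cells of a type and less RNA per cell cannot be told apart.

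Most receptor probe sets were dim. The mean log2 signal of a probe set over the 12 arrays of a stage was compared with the mean 20th percentile of those arrays, which stood at a signal of 92.0 in adults and 89.2 in larvae. Of the 186 receptor probe sets, 78 (41.9%) were above it in adults and 78 (41.9%) in larvae, against 78.7% of all probe sets in adults and 78.3% in larvae. The adult count held 28 odorant, 29 gustatory and 21 ionotropic receptor probe sets, and the larval count held 29, 32 and 17. Only 6 were above the 40th percentile in adults and 5 in larvae. A single probe set exceeded the median of the arrays in each stage, that of Ir7c in adults and that of Ir76a in larvae.

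The 5 brightest probe sets in adults were those of Ir7c, Ir76a, Or43a, Gr22a and Ir68a, and in larvae those of Ir76a, Or43a, Ir64a, a Gr23a probe set and Gr89a. Or43a, which responds to benzaldehyde, averaged 388 ± 91.7 in S_O2_A adults and 374 ± 157 in control adults, and 338 ± 59.7 in S_O2_A larvae and 343 ± 69.5 in control larvae (SD, n = 6 arrays each). It was above the 20th percentile on all 24 arrays, with a log2 fold change of 0.12 in adults and -0.02 in larvae (limma, adjusted p = 0.919 and 0.973). Ir68a, needed for sensing moist air, averaged 404 ± 159 in S_O2_A adults and 332 ± 91.6 in control adults (log2 fold change 0.24, adjusted p = 0.82). Gr22a averaged 378 ± 151 in S_O2_A adults and 427 ± 132 in control adults (-0.26, adjusted p = 0.868). Ir64a, a receptor for acids, averaged 320.1 ± 144 in S_O2_A larvae and 413 ± 181 in control larvae (-0.35, adjusted p = 0.775).

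Detection was also uneven between arrays of the same stage. Of the 186 probe sets, 15 were above each array's own 20th percentile on all 12 adult arrays and 20 on all 12 larval arrays, while 6 and 16 were above it on no array. There were 61 probe sets above the percentile in both stages, 17 in adults alone, 17 in larvae alone and 91 in neither. Those in adults alone included Ir7c, Ir31a, Or22a, Or67a and Ir52d, and those in larvae alone included the bitter receptors Gr33a and Gr66a, the co-receptor Ir76b and 2 probe sets of Or35a. Being above in 1 stage alone did not by itself mean a difference between stages. The test between stages was not passed by Gr33a, Gr66a or Ir76b in either selection group (limma, adjusted p = 0.0544 to 0.972). Ir7c, Ir31a and 1 Or35a probe set passed it in both. In adults the count per array was 87 to 102 on S_O2_A arrays and 84 to 94 on control arrays. Averaged per population it was 96.3 ± 3.88 in S_O2_A adults and 91.2 ± 1.89 in control adults (SD, n = 3 populations each), a difference that did not pass an exact two-sided permutation test (p = 0.3, where 0.1 is the smallest p this design allows). In larvae it was 92.0 ± 1.80 in S_O2_A and 90.5 ± 2.78 in control populations (exact permutation p = 0.7).

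**Figure D1:**
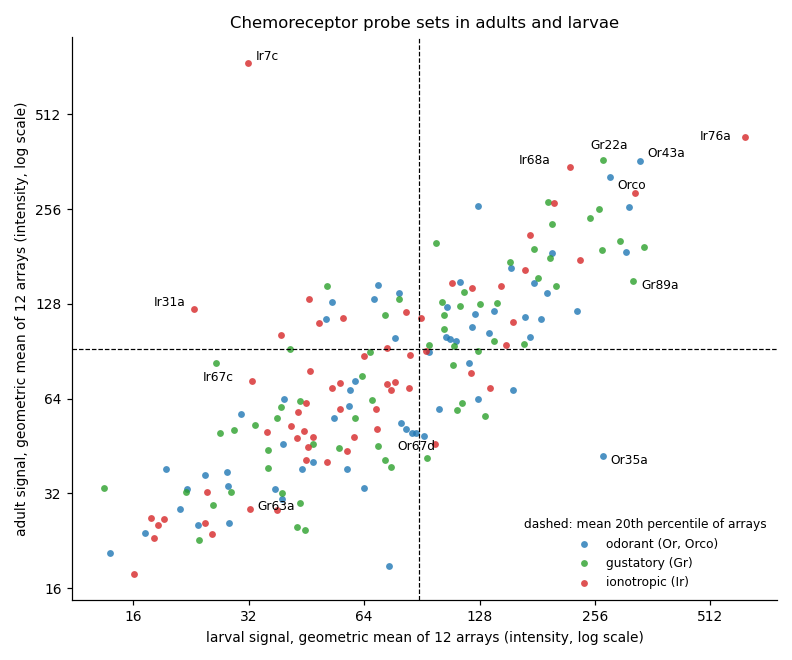
Signal of each of the 186 receptor probe sets in larvae (horizontal axis) and adults (vertical axis), as the geometric mean of 12 arrays of each stage on log scales of intensity, with 1 point per probe set, colours for the 3 families and dashed lines at the mean 20th percentile of 89.2 in larvae and 92.0 in adults. Most points lie along the diagonal at low signal, Ir7c stands apart as bright in adults and dim in larvae, and Or35a lies the other way.

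The signals of these genes varied widely between replicates. The median SD of log2 signal within a group was 1.11 for receptor probe sets in adults, against 0.493 for all probe sets, and 1.01 in larvae, against 0.438. It was 0.934 for the adult probe sets above the 20th percentile and 1.21 for those not above it. The stage labels were checked against marker genes, and 6 of 6 measured adult markers were higher and 5 of 5 measured larval markers lower in adults than in larvae of both selection groups. Of 8 measured pan-neuronal genes, none passed the test for selection in either stage. Their summed signal was 6859 to 14970 on S_O2_A adult arrays and 7536 to 12900 on control adult arrays. Their median log2 fold change in adults was 0.43 with 7 of 8 positive, against 0.06 and 57.9% positive over all probe sets. Most of the sum came from nrv3, with means of 5474 in S_O2_A and 6617 in control adults, the gene whose difference was negative (-0.30). The part of these 8 genes in the receptor values was not tested.

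In adults, selection was compared across all 18769 probe sets with limma (linear models of log2 signal), treating each population as a random block, with Benjamini-Hochberg adjustment. In S_O2_A adults 3 receptors were higher than in control adults, namely Ir7c, Or67d and Ir67c, and none was lower. Across all probe sets 0.0799% were called higher and 0.277% lower. At an unadjusted p under 0.05, 15 receptor probe sets were higher and 2 lower (9.14% of 186), against 1008 higher and 1078 lower over all probe sets (11.1%). The median log2 fold change over the 186 receptor probe sets was 0.20, with 117 of them (62.9%) positive. Over all probe sets it was 0.06, with 57.9% positive. With each array centred on its median these medians were 0.12 and -0.02. With quantile normalization 97 receptor probe sets were positive with a median of 0.03, against 51.9% and 0.01 over all probe sets. Array 1 of S_O2_A population 2 stood apart, with a median receptor signal of 149.6 against 82.0 to 103.7 on the other 5 S_O2_A adult arrays and 65.5 to 106.7 on control adult arrays, and a 20th percentile of 117.9 against 90.9 to 99.0 on the other S_O2_A adult arrays. Without that population the receptor median was 0.12 with 110 positive, and over the 6 populations left out in turn it ran from 0.09 to 0.31. The ionotropic receptors had a median of 0.28 with 43 of 60 positive, the odorant receptors 0.16 with 40 of 63, and the gustatory receptors 0.12 with 34 of 63.

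Ir7c belongs to a group of ionotropic receptors of the Ir7 name and works with Ir25a and Ir76b in taste neurons that respond to high salt. Its signal on the 6 S_O2_A adult arrays was 861.9 at the lowest, 988.1 at the median and 1273.2 at the highest, against 400.4, 560.1 and 650.5 on the 6 control adult arrays. The arrays of the groups did not overlap, and each S_O2_A population (869 to 1256) averaged higher than each control population (489.8 to 595.8). Ir7c averaged 1038 ± 188 in S_O2_A adults and 550.0 ± 83.7 in control adults (SD, n = 6 arrays each), a log2 fold change of 0.91 with a standard error of 0.16 (limma, adjusted p = 0.039), or 1.88-fold. It was the single called receptor whose mean was above the 20th percentile in adults. The call was lost on omitting each of the 6 populations in turn, with adjusted p between 0.0845 and 0.162, and when each array was centred on its median (0.231).

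Or67d is the receptor for the male pheromone cis-vaccenyl acetate, carried by trichoid sensilla of the antenna. It gave 46.3, 133.4 and 238.3 as the lowest, median and highest signal on S_O2_A adult arrays, against 7.6, 23.4 and 34.8 on control adult arrays. No array of one group overlapped the other, but none of the 6 control arrays was above its own 20th percentile, and 5 of the 6 S_O2_A arrays were. The log2 fold change was 2.62 with a standard error of 0.47 (limma, adjusted p = 0.0424). With signals floored at the 20th percentile, the difference was 0.59 (adjusted p = 0.227), so its size rested on values near the bottom of the scale. The mean of Or67d over adult arrays was not above the 20th percentile.

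Ir67c lies beside Ir67b on chromosome arm 3L in the RefSeq gene order. On S_O2_A adult arrays its signal was 99.4 at the lowest, 149.5 at the median and 214.9 at the highest, against 18.6, 38.2 and 71.9 on control adult arrays. Here too the groups did not overlap, with all 6 S_O2_A arrays and none of the control arrays above their own 20th percentile. The log2 fold change was 2.02 with a standard error of 0.37 (limma, adjusted p = 0.0467), and 0.67 (adjusted p = 0.0833) with signals floored at the 20th percentile. Its neighbour Ir67b averaged 270.2 ± 141 in S_O2_A adults and 111.7 ± 84.0 in control adults, with a log2 fold change of 1.44 that did not pass (adjusted p = 0.32). For Ir67a, which is not adjacent to them, the difference was -0.42 (adjusted p = 0.908).

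Or67d passed without S_O2_A population 1 (adjusted p = 0.037) and did not pass without any other population (0.09 to 0.204). Ir67c did not pass without any of the 6 populations (0.0788 to 0.198). With each array centred on its median, the adjusted p was 0.0978 for Or67d and 0.18 for Ir67c, although both differences kept their direction.

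Taken by overlap alone, the 6 S_O2_A arrays lay entirely above the 6 control arrays for 5 receptor probe sets in adults and entirely below them for none. Over all probe sets 0.852% lay entirely above and 1.55% entirely below. The 5 were Ir7c, Or67d, Ir67c, Ir76a and Gr94a. Ir76a, an antennal receptor for phenylethylamine, averaged 696 ± 202 in S_O2_A adults and 303 ± 101 in control adults. Its lowest S_O2_A array read 454.9 and its highest control array 380.8. The log2 fold change of 1.25 did not pass the test (adjusted p = 0.172). Gr94a averaged 85.2 ± 50.3 in S_O2_A adults and 26.8 ± 8.12 in control adults, with a log2 fold change of 1.53 (adjusted p = 0.116). In Gr94a both arrays of S_O2_A population 3 read 147.2 and 152.5, and the other 4 S_O2_A arrays lay between 45.5 and 57.8.

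**Figure D2:**
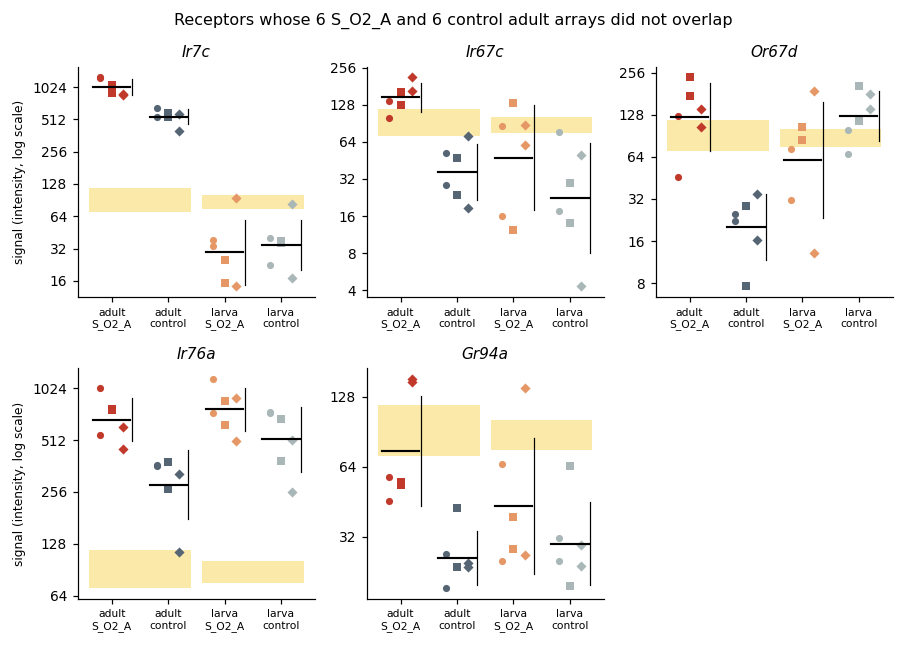
Signal per array on a log scale of intensity for the 5 receptors whose S_O2_A and control adult arrays did not overlap, with adults left and larvae right and S_O2_A before control, circles, squares and diamonds for populations 1, 2 and 3, black bars for the mean of 6 arrays and vertical lines for 1 SD of log2 signal, and a yellow band for the range of the arrays' 20th percentiles. Ir7c lies above the band on every adult array and Ir76a on all but the lowest control adult array (114.6), whereas Or67d, Ir67c and Gr94a lie within or below it on control adult arrays.

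No other receptor passed in adults. Among probe sets above the 20th percentile, the 5 largest positive differences were those of Or59b, Ir67b, Ir76a, Or23a and Or33b. That filter used the mean of both groups, so a probe set could pass it mainly through the brighter group. The 20th percentiles of control adult arrays were 70.8 to 102.9. The lowest control population mean was below these for Or59b (42.8), Ir67b (47.1), Or23a (39.25) and Or33b (39.8), and above them for Ir76a (219.5). Apart from Ir76a, these differences need not lie between signals detected in both groups. Or59b, the methyl acetate receptor of the antenna, gave 39.5 to 489.4 on S_O2_A arrays (median 206.2) and 41.2 to 149.5 on control arrays (median 47.0), a log2 fold change of 1.56 (adjusted p = 0.355). The groups also overlapped in Or23a and Or33b, and the differences were 1.06 for Or23a (adjusted p = 0.624) and 1.05 for Or33b (adjusted p = 0.652).

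The largest negative differences above the percentile were those of Ir68b at -1.25, a Gr23a probe set at -1.15, Gr47a at -0.89, Gr8a at -0.60 and Gr21a at -0.57, with adjusted p between 0.535 and 0.807. The Gr23a probe set gave 21.5 to 351.5 on S_O2_A adult arrays and 111.3 to 481.9 on control adult arrays, so the groups overlapped. Gr8a, which detects the plant compound L-canavanine, gave 23.6 to 408.1 on S_O2_A arrays and 116.3 to 298.9 on control arrays. Again the spread within S_O2_A adults exceeded the difference.

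The co-receptors were examined because the other subunits depend on them. Orco was above the 20th percentile on all 24 arrays. It gave 131.2, 310.8 and 370.9 as lowest, median and highest in S_O2_A adults, against 315.3, 384.9 and 468.4 in control adults, a log2 fold change of -0.45 with a standard error of 0.25 (adjusted p = 0.547). The ranges overlapped, with the 1 array at 131.2 far below the other 5. Ir8a averaged 273 ± 164 in S_O2_A adults and 208 ± 65.9 in control adults (log2 fold change 0.20, adjusted p = 0.907). Ir25a averaged 239 ± 166 in S_O2_A adults and 202 ± 100.5 in control adults (0.11, adjusted p = 0.972). Ir76b averaged 128 ± 82.2 in S_O2_A adults and 67.2 ± 37.0 in control adults (0.86, adjusted p = 0.632), and it was the 1 co-receptor of the 4 not above the percentile in adults. The signs for Ir8a and Ir25a turned when single populations were left out, and that of Ir25a also with quantile normalization.

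In larvae Ir8a averaged 289.5 ± 130 in S_O2_A larvae and 148 ± 116 in control larvae, a log2 fold change of 1.101 (adjusted p = 0.38). Ir76b averaged 186 ± 79.6 in S_O2_A larvae and 119 ± 85.2 in control larvae, a log2 fold change of 0.76 (adjusted p = 0.623). Orco averaged 302 ± 114 in S_O2_A larvae and 283 ± 65.5 in control larvae (log2 fold change 0.03, adjusted p = 0.973). Ir25a averaged 224 ± 61.8 in S_O2_A larvae and 259 ± 69.9 in control larvae (-0.21, adjusted p = 0.728). In all 4 genes the larval groups overlapped.

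Gr21a and Gr63a form the carbon dioxide receptor, and the fly needs both. Gr21a gave 97.0, 146.2 and 217.8 as lowest, median and highest in S_O2_A adults and 119.9, 249.9 and 302.9 in control adults, a log2 fold change of -0.57 (adjusted p = 0.535). Gr63a was not above the 20th percentile on any of the 24 arrays, with 18.7 to 50.6 in S_O2_A adults and 23.0 to 57.6 in control adults and a log2 fold change of -0.22 (adjusted p = 0.826). The groups overlapped in both genes.

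**Figure D3:**
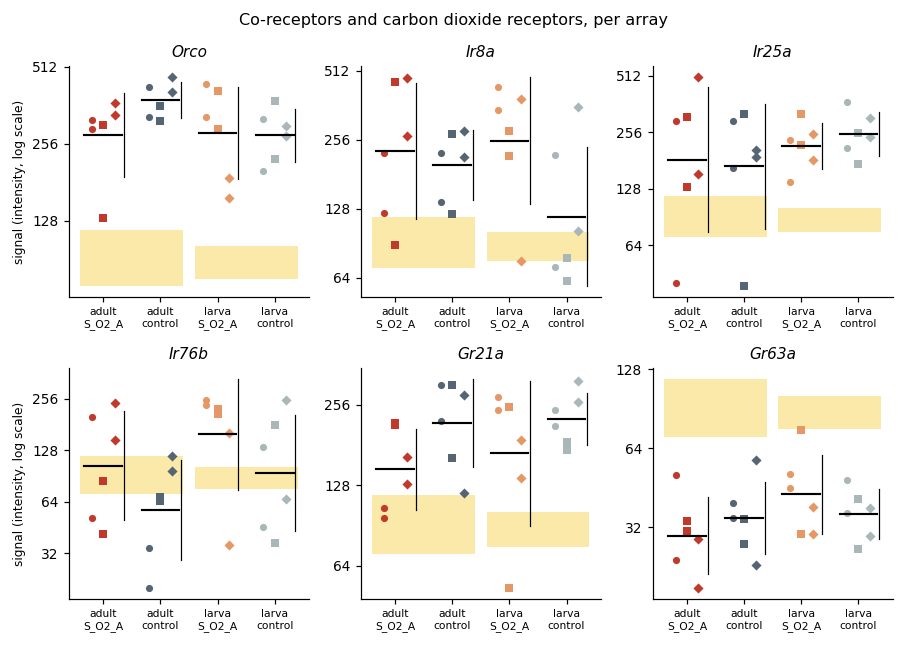
Signal per array on a log scale of intensity for the co-receptors Orco, Ir8a, Ir25a and Ir76b and the carbon dioxide receptors Gr21a and Gr63a, with S_O2_A before control and adults before larvae, circles, squares and diamonds for populations 1, 2 and 3, black bars for the mean of 6 arrays and vertical lines for 1 SD of log2 signal, and a yellow band for the range of the arrays' 20th percentiles. Orco lies above the band on every array, Gr63a lies at or below it on every array, and the S_O2_A and control arrays overlap in each panel.

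Receptors were also grouped by the sensory organ or the stimulus they are known for. Each gene was represented by its probe set with the highest mean log2 signal over all arrays. Of 10 measured odorant receptors listed for trichoid and related sensilla, among them pheromone receptors but also Or43a and Or83c, 1 was called higher (Or67d) and 9 were positive. Their median log2 fold change was 0.65, against 0.20 for all receptor probe sets and 0.06 for all probe sets, of which 57.9% were positive. The lists were fixed with earlier results of these data known and this one held Or67d, so its median and counts are description only. Only 5 of the 10 were above the 20th percentile in adults. Array 1 of S_O2_A population 2, which stood apart, was the highest S_O2_A adult array for Or67d, Or47b, Or88a, Or65a, Or83c and Or23a, and not for the others. Of 14 measured antennal ionotropic receptors none was called and 12 were positive, with a median of 0.20. Of 24 measured odorant receptors known from larvae, none was called and 13 were positive (median 0.06). Among the 7 odorant receptors of the maxillary palp, 5 measured receptors for sugars and fructose, 5 widely expressed bitter receptors, 2 receptors for light and heat and 5 ionotropic receptors of foreleg and mating, none was called in adults either.

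The sugar receptors were Gr5a, Gr43a, Gr61a, Gr64a and Gr64f, and all 5 were above the 20th percentile in both stages. Gr61a averaged 318 in S_O2_A adults and 256 in control adults, and Gr43a, the fructose receptor, 246 and 181 in the same order. Their log2 fold changes of 0.50 and 0.57 did not pass (adjusted p = 0.765 and 0.684). Among the bitter receptors Gr32a averaged 292 in S_O2_A adults and 216 in control adults (log2 fold change 0.48, adjusted p = 0.603).

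Odorant-binding proteins and other perireceptor proteins, a class named for acting around receptor neurons in the sensilla, were measured alongside. The RNA was from the whole organism, so their signal need not come from sensilla. Of 26 measured genes, 25 were above the 20th percentile in adults and 1, Obp57a, was called lower in S_O2_A adults (log2 fold change -0.75, adjusted p = 0.0349), while 3 were positive and the median was -0.68. Lush, the binding protein that acts with Or67d in pheromone detection, averaged 378 in S_O2_A adults and 571 in control adults (log2 fold change -0.64, adjusted p = 0.265). Snmp1, a membrane protein of the same neurons, averaged 265 in S_O2_A adults and 466.5 in control adults (-0.91, adjusted p = 0.301). The list's summed signal was 127700 to 164100 on S_O2_A adult arrays and 163700 to 236300 on control adult arrays. Obp99c (37250), Obp99a (33480), Obp44a (21330) and Obp56d (16930) had the largest means in S_O2_A adults, so the sum largely reflects these. The part of the list in the receptor values was not tested. Of 4 transcription factors of receptor choice, acj6, pdm3, ato and amos, none was called in either stage.

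In larvae no receptor passed the test in either direction, whereas 0.868% of all probe sets were called higher and 0.778% lower in S_O2_A larvae. Nor were there any receptor probe sets whose 6 S_O2_A and 6 control larval arrays did not overlap, against 1.85% of all probe sets entirely above and 2.27% entirely below. At an unadjusted p under 0.05, 4 receptor probe sets were higher and 6 lower (5.38% of 186), against 1084 higher and 1959 lower over all probe sets (16.2%). The median log2 fold change was -0.10 over the 186 receptor probe sets and -0.11 over all probe sets. With each array centred on its median these medians were 0.08 and 0.07, so the sign of both depended on the scaling.

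**Figure D4:**
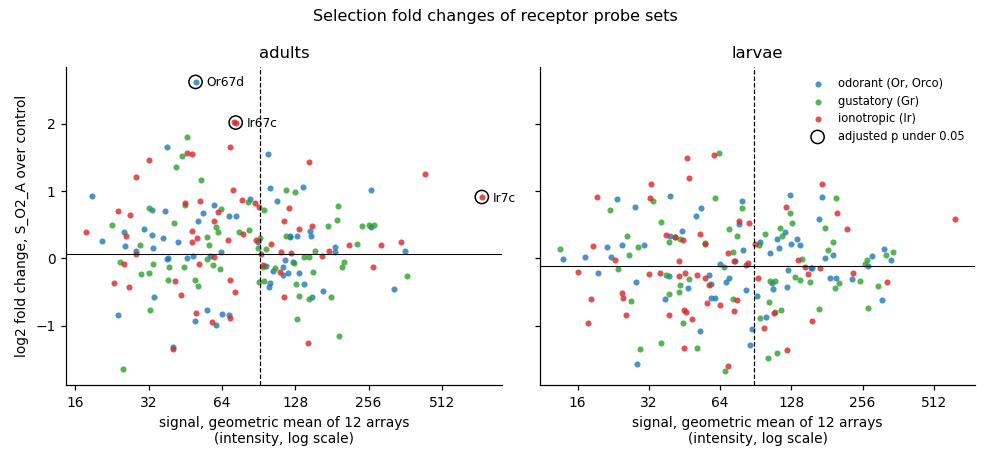
Log2 fold change of S_O2_A over control (vertical axis) against signal, as the geometric mean of 12 arrays on a log scale of intensity (horizontal axis), for the 186 receptor probe sets in adults (left) and larvae (right), with colours for families, circles around receptors with adjusted p under 0.05, a dashed line at the mean 20th percentile and a horizontal line at the median of all probe sets (0.06 in adults and -0.11 in larvae). Ir7c, Or67d and Ir67c are circled in adults, no point is circled in larvae, and the points spread most widely left of the dashed line.

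Above the 20th percentile by the mean of both groups, the largest positive larval differences were those of Ir8a (1.101), Or85e (0.95), Or33b (0.92), Gr77a (0.89) and Ir76b (0.76). Or85e, a receptor of the maxillary palp, gave 57.8, 210.6 and 312.1 as lowest, median and highest in S_O2_A larvae and 39.8, 86.3 and 246.8 in control larvae (adjusted p = 0.478). Gr77a gave 230.6 to 321.4 in S_O2_A larvae and 28.8 to 238.4 in control larvae (adjusted p = 0.409). In Gr77a 5 of the 6 control larval arrays lay between 154.8 and 238.4 and the remaining array read 28.8.

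The largest negative differences were those of Gr47a (-1.48), Gr58a (-1.40), Ir68b (-1.36), a probe set of Ir40a (-1.03) and Ir60a (-0.92), with adjusted p between 0.122 and 0.576. Gr47a gave 38.6, 50.5 and 210.1 as lowest, median and highest in S_O2_A larvae, against 57.3, 182.4 and 345.1 in control larvae. It was above the array's own 20th percentile on 1 of the 6 S_O2_A and 5 of the 6 control larval arrays. Ir68b gave 39.9, 67.0 and 186.0 in S_O2_A larvae and 139.6, 198.5 and 284.8 in control larvae. Ir68b passed only without S_O2_A population 1 (adjusted p = 0.0342).

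The receptors called in adults were set beside their larval values. Ir7c was dim in larvae, with 14.2 to 94.0 on S_O2_A arrays and 16.9 to 82.6 on control arrays (log2 fold change -0.23, adjusted p = 0.888). Or67d gave 13.1, 78.5 and 189.0 in S_O2_A larvae and 66.6, 127.9 and 204.3 in control larvae (-1.05, adjusted p = 0.468). Ir67c gave 12.4, 72.7 and 133.1 in S_O2_A larvae and 4.3, 23.8 and 76.4 in control larvae (1.098, adjusted p = 0.597). Ir76a remained bright in larvae, with 508.6 to 1159.0 on S_O2_A arrays and 254.9 to 745.1 on control arrays (0.58, adjusted p = 0.402).

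Whether selection acted differently in adults and larvae was tested as the interaction over all 24 arrays. Here 2 receptor probe sets had a higher difference in adults than in larvae, those of Or67d and Ir40a, and none had a lower difference. Across all probe sets 1.01% were called higher and 0.954% lower. Or67d had an interaction of 3.67 on the log2 scale with a standard error of 0.73 (adjusted p = 0.0113). Its S_O2_A arrays were higher than control arrays in adults, and in larvae the log2 difference was negative and not significant. The Or67d signals of all 4 groups ran from 7.6 to 238.3 and its mean was above the 20th percentile in neither stage. With signals floored at the 20th percentile the interaction was 0.94 (adjusted p = 0.0982), and it did not pass without control population 2 (0.0651) or control population 3 (0.0711).

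Ir40a is a receptor of the sacculus, a pit in the antenna, and works with Ir93a and Ir25a in sensing dry air. Its called probe set averaged 97.3 ± 70.1 in S_O2_A adults and 28.9 ± 14.3 in control adults, and 82.4 ± 43.0 in S_O2_A larvae and 149 ± 49.8 in control larvae. The interaction was 2.60 with a standard error of 0.67 (adjusted p = 0.0451), it kept the call, among the alternatives that tested this probe set, only without S_O2_A population 1 (0.0205), and neither stage passed on its own (adjusted p = 0.226 in adults and 0.361 in larvae). A second probe set of Ir40a was above the 20th percentile in both stages, with averages of 181 in S_O2_A adults, 174 in control adults, 211 in S_O2_A larvae and 213 in control larvae, and log2 fold changes of 0.03 and -0.15. The probe sets of this gene thus did not give the same pattern.

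The next smallest p-values of the interaction were those of Or1a at 1.87 (adjusted p = 0.0918), Ir56c at 2.15 (0.187) and Gr92a at 0.83 (0.20). Or1a gave 27.5, 65.8 and 135.7 in S_O2_A adults, against 6.9, 26.4 and 51.8 in control adults, and at most 28.9 on any larval array. Only 2 of its 24 values were above the 20th percentile of their array.

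Stage was compared next, as adults minus larvae within each selection group over the 24 arrays. In control populations 7 receptor probe sets were higher and 12 lower in adults than in larvae, against 28.9% of all probe sets called higher and 22.1% called lower. In S_O2_A populations 13 were higher and 3 lower, against 34.1% and 19.4% of all probe sets. The split depended on the scaling. It was 7 higher and 8 lower in control and 10 higher and 7 lower in S_O2_A populations with each array centred on its median, and 9 and 8 in control and 8 and 7 in S_O2_A populations with quantile normalization. The median log2 difference over all probe sets was 0.09 in control and 0.30 in S_O2_A populations, and 0.20 and 0.14 with each array centred on its median.

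Ir7c was the adult receptor that stood furthest from its larval level. Its signal was 861.9 to 1273.2 on S_O2_A adult arrays against 14.2 to 94.0 on S_O2_A larval arrays, and 400.4 to 650.5 on control adult arrays against 16.9 to 82.6 on control larval arrays. The log2 differences were 5.12 in S_O2_A populations (adjusted p = 4.28e-11) and 3.98 in control populations (adjusted p = 3.18e-09), and no adult array overlapped a larval array. Since 11 of the 12 larval arrays were not above their own 20th percentile for Ir7c, the size of this difference rests on values at the bottom of the scale.

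Ir31a, an antennal receptor, gave 40.8, 134.2 and 396.3 as lowest, median and highest in S_O2_A adults, against 14.2, 23.4 and 46.2 in S_O2_A larvae. In control adults it gave 43.0, 145.0 and 249.3, against 12.3, 25.9 and 34.7 in control larvae. The differences of 2.48 and 2.37 both passed (adjusted p = 0.000443 in S_O2_A and 0.000706 in control populations). None of the 12 larval arrays was above its 20th percentile for this gene.

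Of the other adult-high receptors, Ir7g (2.15, adjusted p = 0.000837), Gr85a (2.19, adjusted p = 0.00803) and Or67a (2.00, adjusted p = 0.00141) were called in S_O2_A populations and not in control populations (0.91, 0.83 and 0.59, with adjusted p of 0.145, 0.33 and 0.348). The interaction did not pass for any of them (adjusted p = 0.369, 0.471 and 0.297). Or98b was called in control populations (1.61, adjusted p = 0.0144) and not in S_O2_A populations (0.74, adjusted p = 0.264), with an interaction adjusted p of 0.572.

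Or35a was the receptor with the largest difference toward larvae. Or35a is carried by coeloconic sensilla of the adult antenna and is also known from the larval olfactory organ. The first of its 3 probe sets gave 18.6, 45.5 and 124.7 in S_O2_A adults against 143.3, 270.0 and 371.9 in S_O2_A larvae, and 7.3, 54.0 and 138.5 in control adults against 141.7, 319.1 and 365.9 in control larvae. The log2 differences were -2.49 (adjusted p = 0.00115) and -2.85 (adjusted p = 0.000306), with no overlap between stages. The other 2 probe sets of Or35a differed in the same direction by -0.61 and -0.83 in S_O2_A populations and by -1.21 and -0.23 in control populations and were not called.

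Or83c, the receptor for the citrus odour farnesol, was lower in control adults than in control larvae, with 23.8, 57.0 and 106.0 against 89.8, 174.6 and 235.4 as lowest, median and highest (log2 difference -1.59, adjusted p = 0.00162). Ir7a, a taste receptor for acetic acid, was lower in control adults as well (-1.81, adjusted p = 0.00918). A probe set of Ir40a (-2.39, adjusted p = 0.000142, with -0.13 and adjusted p = 0.876 for the second probe set), Or67d (-2.64, adjusted p = 0.000123) and Ir76a (-0.87, adjusted p = 0.0164) were also lower in control adults than in control larvae. None of these 5 was called between S_O2_A adults and S_O2_A larvae, with differences of -0.81, -0.14, 0.21, 1.02 and -0.20 in the order named. The interaction was called for Or67d and the Ir40a probe set and for none of the others.

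In control populations Or13a (-2.46), Or47b (-1.58), Gr58a (-1.57), the sugar receptor Gr64a (-1.54), Gr59f (-1.47) and Or94a (-1.08) were also lower in adults than in larvae, and Gr36c (1.26) was higher. In S_O2_A populations Or1a (1.91), 1 of the 3 Ir41a probe sets (1.92, with 1.46 and -0.96 for the others, which did not pass), Ir52d (1.65), Ir67c (1.62), Or2a (0.92) and Gr92a (0.59) were higher in adults. A pair of the 5 Gr39a probe sets was higher in adults in both, by 1.195 and 1.84 in S_O2_A and by 1.43 and 1.47 in control populations. Neither of this pair was above the 20th percentile in either stage. The other Gr39a probe sets did not pass, with 0.28, 1.01 and 1.03 in S_O2_A and -0.28, -1.09 and 0.73 in control populations. Or94a, Gr36c and Gr64a were above the 20th percentile in both stages, with Or94a at 202 ± 94.7 in control adults and 399 ± 125 in control larvae. Or13a, Or1a, Or2a and Ir67c were above that percentile in neither stage. The interaction was called for none of the genes in this paragraph, so a call in 1 selection group alone was not a difference between the groups. Or13a, for example, was at -1.50 in S_O2_A populations (limma, adjusted p = 0.0936).

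In S_O2_A populations Gr89a, one of the bitter receptors carried by most bitter neurons, gave 23.0 to 285.6 in adults and 260.0 to 440.3 in larvae (-1.23, adjusted p = 0.0148). 1 of the 3 Gr23a probe sets gave 21.5 to 351.5 in adults and 133.9 to 588.1 in larvae (-1.45, adjusted p = 0.0155), and the others differed by 0.10 (adjusted p = 0.86) and -1.34 (adjusted p = 0.092). In control populations their differences of -0.96 (adjusted p = 0.0559) and -0.20 (adjusted p = 0.773) did not pass. Among probe sets above the 20th percentile in the brighter stage, Or85e (-1.42, adjusted p = 0.0522) and Gr66a (-1.002, adjusted p = 0.179) in S_O2_A populations and Gr33a (-1.75, adjusted p = 0.0544) in control populations had larval levels among the furthest above adult ones without passing. Gr33a and Gr66a are bitter receptors too. Toward adults, Gr22b passed in control populations (1.39, adjusted p = 0.0148) and Or65b did not (1.43, adjusted p = 0.0719).

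**Figure D5:**
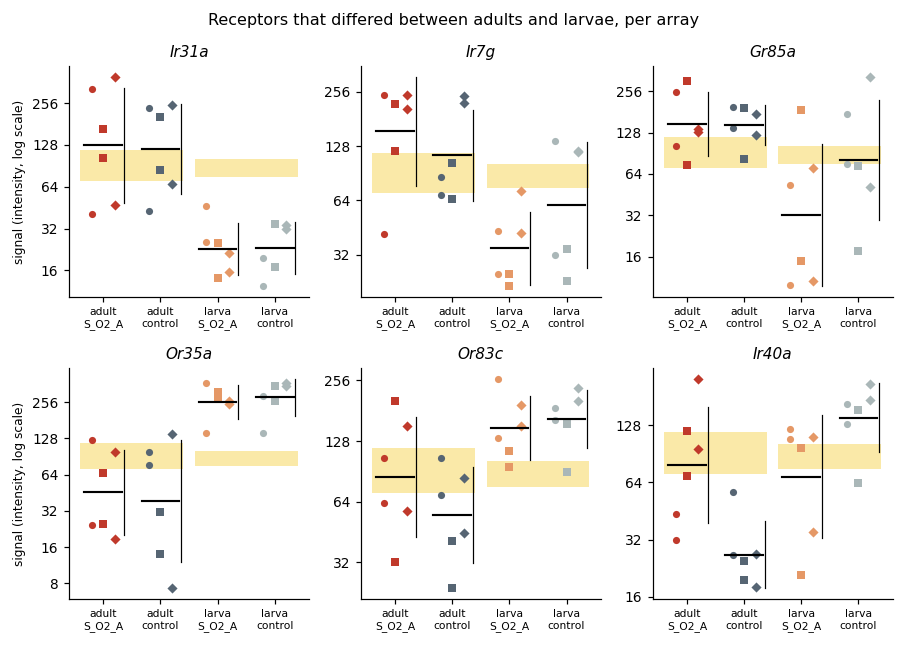
Signal per array on a log scale of intensity for 6 receptors called between adults and larvae, with S_O2_A before control and adults before larvae, circles, squares and diamonds for populations 1, 2 and 3, black bars for the mean of 6 arrays and vertical lines for 1 SD of log2 signal, and a yellow band for the range of the arrays' 20th percentiles. Ir31a and Or35a were called in both selection groups, Ir7g and Gr85a (higher in adults) in S_O2_A populations, and Or83c and Ir40a (lower in adults) in control populations, with 1 probe set shown for each gene.

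The receptor groups were also compared between stages. Of 24 measured odorant receptors known from larvae, 10 were above the 20th percentile in adults and 10 in larvae. By the 1 probe set representing each gene, none was called higher and 2 were called lower in adults in control populations, and 2 were called higher and none lower in S_O2_A populations. These counts do not include the Or35a probe set described above, which was lower in adults in both. Of the 7 odorant receptors of the maxillary palp, an adult organ, 5 were above the percentile in adults and 5 in larvae, and none was called between stages. Or42a, above it in both stages, is also on the list of odorant receptors known from larvae. Of the 26 perireceptor genes 12 were called higher and 6 lower in control adults than in control larvae. Over all probe sets 28.9% were called higher and 22.1% lower in adults in control populations, and 34.1% and 19.4% in S_O2_A populations.

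Receptor genes often lie side by side in the genome. By the RefSeq gene order of the assembly named Release 6 plus ISO1 MT, 66 of the 166 genes had a neighbouring gene of the same family. The called Ir7c stands beside Ir7d on the X chromosome. Of the 5 measured genes of the Ir7 name, 4 had a positive log2 fold change in adults and 1 was called. Ir7d averaged 115 in S_O2_A adults and 83.9 in control adults (0.28, adjusted p = 0.867), Ir7a averaged 126 in S_O2_A adults and 64.8 in control adults (1.65, adjusted p = 0.398), and Ir7b averaged 41.4 and 53.3 in the same order (-0.54, adjusted p = 0.63). Across the 166 genes, 45 lie on 2R, 41 on 3R, 31 on 2L, 28 on 3L and 21 on the X chromosome.

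Genes with more than 1 probe set gave a check within the array. There were 12 such genes with 32 probe sets. The probe sets of a gene had log2 fold changes of the same sign in 6 of the 12 genes in adults and in 5 of the 12 in larvae. Those of Gr39a, a gene with several alternative first exons, ran from -0.33 to 1.80 in adults, and those of Ir41a from -1.33 to 1.54 in larvae, and none of these was called for selection.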

How the data were processed

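The authors deposited microarray intensity values, 1 per probe set and array, for 24 Affymetrix Drosophila Genome 2.0 arrays of whole-organism total RNA. The methods name both MBEI (in dChip) and RMA for background and normalization without saying which made the deposited table. The arrays had been scaled to an equal trimmed mean and were not normalized again. Of 18952 probe sets, 183 array controls were left out. Signals under 1.0 would have been raised to it before taking log2 (the lowest was 1.0).

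Symbols came from the platform annotation (1 symbol for 13646 of the 18769 tested probe sets, several for 402 and none for 4721). Groups and populations came from the sample labels. Each stage was fitted with limma 3.58.1 in R 4.3.3, with the population as a random block (correlation 0.133 in adults and 0.153 in larvae). Interaction and stage contrasts used all 24 arrays (correlation 0.0425). P-values were adjusted by Benjamini-Hochberg over all tested probe sets, and an adjusted p under 0.05 was called. Nothing says that the populations' pairs of arrays came from separate cultures, so the spread between them may be technical, and the small number of arrays limits precision. The fits were tested on simulated data with changes placed only in probe sets above the median signal. Only 1 receptor probe set lay above the median in each stage, so that test did not cover the dim receptors.

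The members and gene lists were chosen with earlier results of these data known. Receptors were named if called in a fit of selection, if co-receptors, carbon dioxide receptors, Or67d or Ir67c, if among the 5 brightest of a stage, if among the 5 largest log2 fold changes of a stage in each direction above the 20th percentile, if among the 5 largest adult-minus-larva differences in each direction above that percentile in the higher stage, or if among the 5 smallest p of the interaction. Others (Gr94a, the sugar receptors, the remaining stage calls, Ir7 and Ir67 genes, and genes given as examples), were named after their values were seen. Alternatives were other scalings, a floor, a filter on dim probe sets, other blocks, the methods' t-test and leaving out each population.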

Additional observations from a re-analysis of the deposited data

Results flagged for a closer look

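Of 104 groups of 6 arrays tested over the named receptors, 13 held an array far from the other 5. This was judged by its gap to the nearest array as a share of the group's range. The shares were taken on signal without log2, and some of these receptors were chosen for large differences. The 5.2 groups given for chance therefore cannot be set against the 13. In S_O2_A adults, population 2 gave 3 of them. Or23a read 497.4 on its array 1 (others 118.2 to 235.3, share 0.691) and Ir56c read 370.0 on the same array (others 25.2 to 84.5, share 0.828), while Orco read 131.2 on its array 2 (others 292.5 to 370.9, share 0.673). In S_O2_A larvae, population 2 read high for Gr47a on array 1 (210.1, others 38.6 to 56.2, share 0.897) and for Gr85a on array 2 (185.4, others 10 to 71.1, share 0.652). Population 3 read high for Ir7c on array 2 (94.0, others 14.2 to 38.6, share 0.694), and population 1 for Ir31a on array 1 (46.2, others 14.2 to 25.6, share 0.644).

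In control adults, population 2 read high on array 1 for Or59b (149.5, others 41.2 to 65.6, share 0.775) and Gr94a (42.5, others 19.2 to 27.0, share 0.665). Population 3 read high on array 1 for Gr47a (415.6, others 70.0 to 195.7, share 0.636) and Ir7a (193.3, others 8.2 to 71.6, share 0.657). Population 1 read high on array 1 for Ir40a (57.2, others 18.1 to 26.9, share 0.775). In control larvae, Ir7c read 82.6 on array 2 of population 3 (others 16.9 to 39.9, share 0.65).

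The selection effect differed between adults and larvae for Or67d, by 3.668 on the log2 scale, and for a probe set of Ir40a, by 2.597.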

How the results depend on the processing

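The 3 adult calls became 0 with median centring, quantile normalization or population means, 1 (Ir7c) with a floor at the 20th percentile or with dim probe sets left out, and 0 to 1 when a population was left out. With the arrays as independent, or with the methods' t-test after Benjamini-Hochberg adjustment, 3 receptors passed, among 226 probe sets with the t-test. At the methods' own threshold 0 probe sets of the whole array passed in either stage with that t-test on the deposited values. The paper reports altered genes in adults at that threshold. It does not state which normalized values gave them, so the 0 is not a repeat of its test. Of the 2 interaction calls, 1 (Or67d) was kept with median centring, quantile normalization, independent arrays or a block for each of the 12 populations within stages, 0 with population means or dim probe sets left out, and the count was 0 to 2 without a population. With the floor neither was kept and 1 other receptor, Ir7c, passed. No larval call was made except under the replicate block and without S_O2_A population 1 (0 to 1 over populations). Leaving out dim probe sets gave 11 of the 19 stage calls in control and 6 of the 16 in S_O2_A populations, and leaving out populations gave 12 to 21 and 12 to 19. Without control population 1 the control count was 12. The 78 receptors above the 20th percentile became 6 in adults and 5 in larvae at the 40th percentile, 15 and 20 on every array, and 75 to 83 and 75 to 81 without a population.

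Deviations of S_O2_A and control populations of the same replicate number correlated at 0.005, -0.084 and -0.038 in adults. In larvae they correlated at 0, 0.012 and 0.117. Adding the number to the larval fit as a replicate block gave 449 probe sets of the whole array higher and 687 lower, against 163 and 146 without it. In adults it gave 8 and 29, against 15 and 52. The numbers thus gave no sign of pairing in adults, while pairing in larvae was not settled. Among receptors, the replicate block gave 1 adult call, 2 larval calls (both lower) and 1 interaction call. Signs turned for Ir25a in adults with quantile normalization (-0.041) and for Ir7c in larvae with the floor (0.013). Over the populations left out, log2 fold changes ran from -0.118 (without S_O2_A population 3) to 0.437 for Ir8a in adults, from -0.191 (without S_O2_A population 3; -0.189 without control population 2) to 0.486 for Ir25a in adults, from -1.456 to 0.011 (without S_O2_A population 3) for Ir60a in larvae, and from -0.382 to 0.071 (without S_O2_A population 2) for Ir7c in larvae. Or1a passed in the interaction without S_O2_A population 3 (2.45). Of the other alternatives for named receptors, 765 kept their direction and side of the threshold and 60 kept only their direction. The causes were not tested. Signals near the 20th percentile limit what the arrays can show for most receptors.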
